A study of Mus musculus with 12 samples.

Results

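The histone deacetylases measured here were the 10 mouse genes Hdac1, Hdac2, Hdac3, Hdac4, Hdac5, Hdac6, Hdac7, Hdac8, Hdac9 and Hdac11, chosen by symbol out of 49585 genes listed in each library. RNA of whole pancreas was sequenced from 12 mice of 2 to 4 months of age, with 1 library for each animal and 3 animals in each of 4 groups. C57Bl6 control mice, called wild type below, received saline (libraries W1, K5 and R3) or cerulein (O1, O3 and N3). Mice of a congenic line labelled Atf3-/- received saline (S1, K4 and Q1) or cerulein (C2, C3 and L4). Cerulein is a cholecystokinin analogue that overstimulates the acinar cell and causes acute pancreatitis, and it was given at 50 ug/kg in each of 4 injections with the tissue removed at 4 h. The labels do not say which piece of Atf3 was deleted or in which cells.

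Histone deacetylases remove acetyl groups from the lysines of histone tails, which is linked to tighter chromatin and lower transcription, and from other proteins. The class I enzymes Hdac1, Hdac2, Hdac3 and Hdac8 are mostly nuclear, and apart from Hdac8 they act inside corepressor complexes. The class IIa enzymes Hdac4, Hdac5, Hdac7 and Hdac9 have little catalytic activity of their own, bind MEF2 transcription factors, and shuttle out of the nucleus when they are phosphorylated and held by 14-3-3 proteins. Hdac6, the only class IIb gene in this list, encodes a cytoplasmic enzyme that acts on tubulin, so class IIb below means Hdac6 alone. Hdac11 is the sole class IV enzyme, known as a remover of long fatty acyl groups.

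The libraries held 18292997 to 32158629 counts. All 10 members passed edgeR's filter on low counts, with 14329 genes kept. Atf3 was at 3.23, 1.13 and 5.28 normalised CPM (counts scaled by library size) in wild type with saline and at 775, 599 and 394 CPM after cerulein. It was at 23.1, 7.44 and 13.5 CPM in the libraries labelled Atf3-/- with saline, and at 1375 CPM in C2 and 1636 CPM in L4 after cerulein, so the gene counts did not fall with the genotype label. Library C3, labelled Atf3-/- with cerulein, held 20.7 CPM of Atf3. C3 stood with the saline libraries also for Hdac5 and Hdac11 below. The group comparisons that use C3 were fitted with and without it. For some genes, the text gives only the value without C3, or no fold change in the line labelled Atf3-/-. Summed CPM of 9 acinar markers ran from 302598 to 464255 with saline and from 223772 to 291374 after cerulein without C3, with no marker at 0, and was 378422 in C3. Summed CPM of 7 duct markers ran from 193 to 272 with saline and from 280 to 465 after cerulein without C3. Their part in the results below was not tested. In whole tissue, fewer cells of a type and less RNA per cell cannot be told apart.

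To show the stretches of DNA next to the genes that the results turn on, the bases just before the RefSeq start of Hdac5 (the member that rose) and Hdac2 (a class I member that did not pass the test), and those just before the GENCODE start of Hdac11 (the member that fell), are printed from 5′ to 3′ on the gene's strand, in build GRCm38.p6. Capitals mark matches to motifs searched on both strands. The Hdac5 stretch is chr11:102230173-102230422 (minus strand), that of Hdac11 is chr6:91156565-91156664 (plus strand), and that of Hdac2 is chr10:36974294-36974543 (plus strand).
Hdac5: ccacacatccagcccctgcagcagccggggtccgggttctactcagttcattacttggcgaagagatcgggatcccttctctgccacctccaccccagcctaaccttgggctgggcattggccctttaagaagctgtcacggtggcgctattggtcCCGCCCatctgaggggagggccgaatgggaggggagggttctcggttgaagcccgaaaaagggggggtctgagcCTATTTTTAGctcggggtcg
Hdac11: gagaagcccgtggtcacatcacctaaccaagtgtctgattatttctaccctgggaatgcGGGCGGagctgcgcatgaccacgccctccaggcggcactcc
Hdac2: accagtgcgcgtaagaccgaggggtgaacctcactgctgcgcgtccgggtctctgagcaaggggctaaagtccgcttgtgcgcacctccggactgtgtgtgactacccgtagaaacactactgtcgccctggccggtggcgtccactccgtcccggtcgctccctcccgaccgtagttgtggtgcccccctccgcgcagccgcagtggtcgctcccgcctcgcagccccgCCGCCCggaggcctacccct

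The capitals in the Hdac5 stretch are a MEF2 site of 10 bases (the run of capitals nearest the start, with its first base at -20) and a GC box (GGGCGG, here on the other strand) at -94. The window of 250 bases before to 50 after each start also held, after the start of Hdac5, the E-box CACGTG at 4 and the cyclic AMP response element half-site TGACGT at 17. The MEF2 and E-box letters were chosen after the Hdac5 stretch had been seen. Of 32851 such windows in the RefSeq promoter table, 36 (0.11%) held the same 10 letters as the MEF2 site, 7.15% held CACGTG, 7.51% held TGACGT and 35.7% held GGGCGG. The capitals of Hdac11 and Hdac2 are GC boxes, at -191 from the RefSeq start of Hdac11 and at -20 from that of Hdac2 (on the other strand). The AP-1 site TGANTCA, the motif bound by Jun and Atf family proteins, was in 7.81% of windows, and among the 12 windows of 8 members it was in 1 of the Hdac7 windows (TGAGTCA, at 23) and 1 of the Hdac9 windows (TGATTCA, at -57). These are matches of letters, and binding was not measured.

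The order of the members in the untreated pancreas was read from CPM per kb of merged exons, since longer genes collect more counts. In wild type with saline, Hdac11 had the highest level, 10.8 ± 0.80 CPM per kb (SD, n = 3). Hdac2 at 4.04 ± 0.29 and Hdac3 at 3.87 ± 0.13 CPM per kb came next and did not differ beyond their spread. Hdac5 at 2.03 ± 0.14 and Hdac1 at 1.90 ± 0.35 CPM per kb were the next pair, again within their spread. Hdac6 at 1.19 ± 0.12 and Hdac7 at 1.13 ± 0.23 CPM per kb, and then Hdac4 at 0.689 ± 0.12 and Hdac8 at 0.594 ± 0.055 CPM per kb, formed 2 further pairs of that kind. Hdac9 was lowest, at 0.0717 ± 0.013 CPM per kb, from 13 to 30 counts in a library. So the class IV gene and the class I genes Hdac2 and Hdac3 led in the saline-treated wild-type pancreas. The choice of length changed parts of this order. Per kb of the longest annotated transcript Hdac2 was at 5.95, 5.15 and 5.56 CPM and Hdac3 at 4.33, 4.26 and 4.54 CPM, with no overlap. On that length Hdac6 was at 1.54, 1.29 and 1.31 CPM and Hdac7 at 1.17, 1.47 and 1.78 CPM. Hdac4 at 1.07, 1.46 and 1.51 CPM and Hdac8 at 1.26, 1.16 and 1.39 CPM overlapped both, so these pairs were no longer apart.

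Cerulein against saline in wild type asks how the tissue's mRNA differs at 4 h of overstimulation. Hdac5 rose about 3-fold and Hdac11 fell to 0.562 of its saline level, while the other 8 members did not pass the test. Thus 1 of 4 class IIa members rose and none of the 4 class I members passed the test. The background was large, since 30.7% of all genes tested were called in this comparison (17.9% higher and 12.8% lower, by edgeR's quasi-likelihood test with Benjamini-Hochberg adjustment at 0.05), so 2 members of 10 is no more than the share over all genes. With plain library totals in place of TMM scaling, the genes called were 3195 higher and 881 lower in place of 2568 and 1831, and the median log2 fold change of all genes was 0.34 in place of 0.05.

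**Figure D1:**
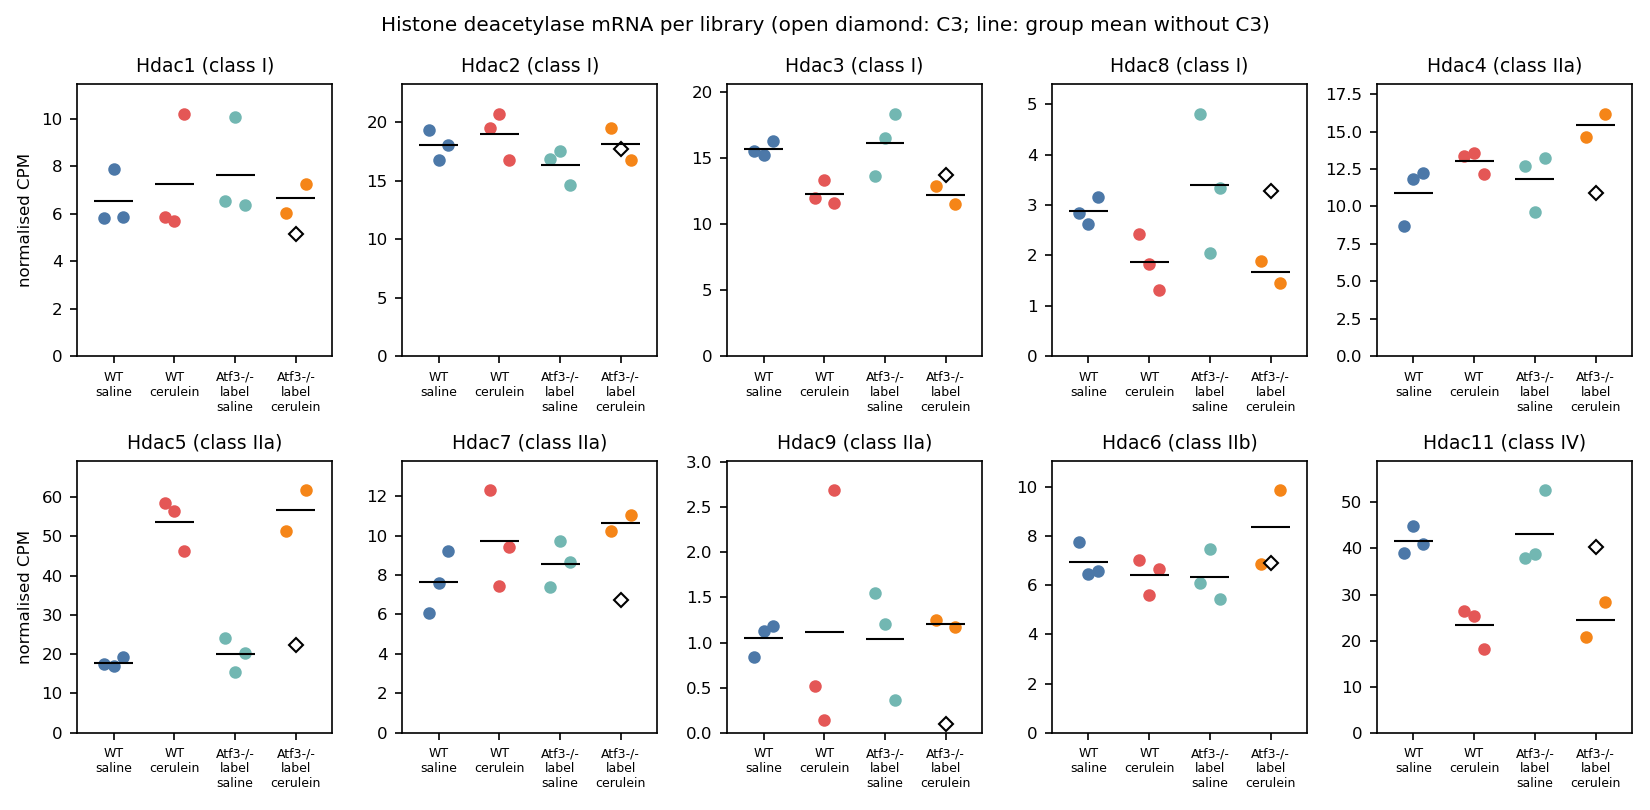
Normalised CPM (vertical axis, from 0) of each of the 10 members in the 12 libraries, by group on the horizontal axis, with points for libraries, an open diamond for C3 and a line at the group mean without C3. Hdac5 sits at 46.2 CPM or more in the 5 other cerulein libraries and at 24.2 CPM or less in the saline libraries and C3, and Hdac11 shows the opposite order.

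Hdac5 encodes a class IIa enzyme known for restraining MEF2 targets and stress-driven growth in muscle. Its levels were 17.5, 16.9 and 19.2 CPM in wild type with saline and 58.5, 56.3 and 46.2 CPM after cerulein. The lowest cerulein library was far above the highest saline library. The log2 fold change was 1.59 with a standard error of 0.32 (edgeR's quasi-likelihood test, adjusted p = 0.00921), from 270 to 1587 counts per library. The call held in 24 of 24 alternative fits, with log2 fold changes from 1.51 to 1.86 and adjusted p up to 0.0406.

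The libraries labelled Atf3-/- gave 24.2, 15.5 and 20.2 CPM of Hdac5 with saline and 51.4 CPM in C2 and 61.8 CPM in L4 after cerulein, while C3 held 22.3 CPM. C3 lay between the saline libraries and the other 2 lay above all of them. With all 12 libraries the log2 fold change was 1.18 ± 0.31 (SE), which did not pass edgeR's quasi-likelihood test (adjusted p = 0.0871). Without C3 it was 1.505 ± 0.19, or 2.84-fold (adjusted p = 0.000263), and leaving out any 1 further library kept it past the threshold, at 1.32 to 1.67. In the same fit without C3 the wild-type value was 1.59 ± 0.18 (adjusted p = 7.62e-05), where 37.9% of all genes were called (21.3% higher and 16.6% lower).

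Averaged over both genotype labels, Hdac5 rose by 1.38 ± 0.22 on the log2 scale with all 12 libraries (edgeR, adjusted p = 0.00213) and by 1.55 ± 0.13 without C3 (adjusted p = 5.27e-06). The 5 cerulein libraries other than C3 lay above all 6 saline libraries. Across all genes tested, 20.5% were higher in this way without overlap. The Hdac5 gene, at chr11:102194432-102230166 on the minus strand in GRCm38, shares 111 exonic bases with Mir8101, which had no count in any library.

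Hdac4, Hdac7 and Hdac9, the other class IIa genes, did not pass the test in any of the comparisons in the fit of 12 libraries or in that without C3. Hdac4, a regulator of chondrocyte and muscle genes, was at 8.67, 11.8 and 12.2 CPM in wild type with saline and at 13.3, 13.6 and 12.2 CPM after cerulein. Mice of the other line had 12.7, 9.62 and 13.2 CPM with saline, 14.6 and 16.2 CPM in C2 and L4, and 10.9 CPM in C3. The wild-type ranges overlapped only by the closeness of R3 and N3, and in the other line C2 and L4 were above the saline libraries. Gm26720 on the other strand overlaps 3536 exonic bases of Hdac4 and had at most 1 count. The log2 fold change of Hdac4 was 0.25 ± 0.20 in wild type (edgeR, adjusted p = 0.354), 0.38 ± 0.18 in the other line without C3 (adjusted p = 0.149), and 0.32 ± 0.12 averaged without C3 (adjusted p = 0.0573). Plain library totals brought the averaged Hdac4 value past the threshold, at 0.51 with C3 (adjusted p = 0.0425) and 0.62 without it (adjusted p = 0.00343), beside medians of all genes of 0.25 and 0.31. In that setting without C3, Hdac7 (0.62, adjusted p = 0.0330) and Hdac2 (0.40, adjusted p = 0.0205) passed as well. Within 1 line, plain totals without C3 gave Hdac4 0.53 in wild type (edgeR, adjusted p = 0.0460) and 0.71 in the other line (adjusted p = 0.0202). The medians of all genes there were 0.35 and 0.30.

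Hdac7, known from endothelial cells and thymocytes, was at 6.08 to 9.22 CPM in wild type with saline and 7.45 to 12.3 CPM after cerulein, with a log2 fold change of 0.35 ± 0.25 (edgeR, adjusted p = 0.314). C2 at 10.2 CPM and L4 at 11.1 CPM were above their 3 saline libraries, which ended at 9.71 CPM, and C3 was at 6.75 CPM. Summed CPM of 8 endothelial markers ran from 120 to 141 with saline and from 103 to 142 after cerulein without C3, and their part in the Hdac7 levels was not tested. Slc48a1, on the other strand, overlaps 29 exonic bases of Hdac7. Hdac9 had 2 to 76 counts in a library, and its log2 fold change in wild type was 0.10 ± 0.95. With a standard error of this size, a difference in Hdac9 as large as that of Hdac5 could have been missed.

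Of the class I genes, Hdac3 fell after cerulein when both labels were averaged, Hdac8 did so without C3 but not with all 12 libraries, and Hdac1 and Hdac2 passed the test in neither fit. Hdac3, the catalytic subunit of the NCoR complex, was at 15.5, 15.3 and 16.3 CPM in wild type with saline and at 11.97, 13.4 and 11.6 CPM after cerulein. In the line labelled Atf3-/- it was at 13.6, 16.5 and 18.4 CPM with saline, at 12.8 and 11.5 CPM in C2 and L4, and at 13.7 CPM in C3. All 5 cerulein libraries other than C3 were below all 6 saline libraries, as were 15.4% of all genes tested. Within 1 genotype label Hdac3 did not pass edgeR's test, with log2 fold changes of -0.35 ± 0.14 in wild type (adjusted p = 0.0865) and -0.40 ± 0.15 in the other line without C3 (adjusted p = 0.0674).

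Averaged over both labels Hdac3 fell by 0.35 ± 0.10 on the log2 scale with 12 libraries (edgeR, adjusted p = 0.0204) and by 0.38 ± 0.10 without C3 (adjusted p = 0.00993). In this averaged comparison, 38.3% of all genes were called (22.8% higher and 15.5% lower), and 48% without C3 (26.8% higher and 21.2% lower). The 12-library call was lost in 7 of 23 alternative fits. These were no filter on low counts (adjusted p = 0.110), plain library totals with C3 (-0.11, adjusted p = 0.504) and without it (-0.08, adjusted p = 0.593), and leaving out R3 (adjusted p = 0.0530), O1 (0.0533), Q1 (0.0583) or L4 (0.0501). With TMM scaling, the call held in 12 of 12 fits that left out C3 and at most 1 further library. Plain totals moved all genes, to a median of 0.25 with C3 and 0.31 without it.

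Hdac8, an X-linked class I enzyme that deacetylates the cohesin subunit Smc3, was at 2.85, 2.62 and 3.15 CPM in wild type with saline and at 2.43, 1.84 and 1.31 CPM after cerulein. It was at 4.81, 2.05 and 3.34 CPM in the line labelled Atf3-/- with saline, at 1.89 and 1.46 CPM in C2 and L4 and at 3.28 CPM in C3. The groups did not overlap within either line once C3 was set aside, but over both lines they did, since K4 with saline lay below O1 with cerulein. These values rest on 37 to 115 counts a library. The averaged log2 fold change was -0.63 ± 0.27 with 12 libraries (edgeR, adjusted p = 0.0881) and -0.83 ± 0.25 without C3 (adjusted p = 0.0194), and leaving out L4 as well ended the latter call (-0.73, adjusted p = 0.0803), as did plain library totals without C3 (-0.52, adjusted p = 0.0932). Leaving out K4 and keeping C3 gave -0.79 (adjusted p = 0.0425).

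On the TMM scale Hdac2 was the steadiest member of class I. It was at 16.7 to 19.3 CPM in wild type with saline and 16.8 to 20.7 CPM after cerulein. The 6 libraries labelled Atf3-/- held 14.7 to 19.5 CPM. With plain library totals the wild-type log2 fold change was -0.07 for Hdac3 and 0.35 for Hdac2, beside 0.34 over all genes. Which member was steadiest thus depended on the scaling. With TMM scaling the log2 fold change of Hdac2 was 0.07 ± 0.14 in wild type (edgeR, adjusted p = 0.721). It was 0.15 ± 0.15 in the other line without C3 (edgeR, adjusted p = 0.473).

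Hdac1, its close paralogue and partner in the same complexes, was at 5.82, 7.91 and 5.87 CPM in wild type with saline and at 5.86, 5.71 and 10.2 CPM after cerulein. It was at 6.53, 10.1 and 6.37 CPM in the line labelled Atf3-/- with saline and at 6.04, 5.16 and 7.26 CPM after cerulein in C2, C3 and L4. The 2 highest values were those of N3 and K4, in different groups, and Hdac9 was also highest in N3, at 2.69 CPM against 0.0938 to 1.55 CPM elsewhere. N3 and K4 had the highest sums of 7 adipocyte markers (469 and 642 CPM, against 30.2 to 209 CPM in the other libraries) and of 7 macrophage and monocyte markers (526 and 392 CPM), and N3 had the highest sum of 9 lymphocyte markers (566 CPM). Their part in the Hdac1 and Hdac9 levels was not tested. The log2 fold change of Hdac1 in wild type was 0.15 ± 0.28 with N3 and -0.17 ± 0.26 without it, and that of Hdac9 was 0.10 ± 0.95 with N3 and -1.62 ± 0.94 without it, none of which passed edgeR's test (adjusted p from 0.223 to 0.951).

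The class IIb gene Hdac6 was at 7.76, 6.47 and 6.58 CPM in wild type with saline and at 7.04, 5.62 and 6.65 CPM after cerulein, a log2 fold change of -0.11 ± 0.20 (edgeR, adjusted p = 0.723). L4 had the highest Hdac6 level, 9.87 CPM, and the other 5 libraries labelled Atf3-/- lay between 5.42 and 7.48 CPM. L4 also had the highest sum of 9 islet markers, 11512 CPM against 463 to 3599 CPM in the other libraries, and their part in the Hdac6 level was not tested. The groups overlapped in each comparison.

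Hdac11, the class IV gene and the most abundant member per length in saline, was at 38.9, 44.9 and 40.9 CPM in wild type with saline and at 26.5, 25.4 and 18.2 CPM after cerulein. The highest cerulein library lay below the lowest saline library. The log2 fold change was -0.83 ± 0.25, or 0.562 of the saline level (edgeR's quasi-likelihood test, adjusted p = 0.0276). The direction held in 24 of 24 alternative fits and the call in 17. It was lost with plain library totals (-0.56, adjusted p = 0.0617) and when any 1 of W1, K5, R3, O1, O3 and N3 was left out of the 12 (-0.68 to -0.93, adjusted p from 0.0537 to 0.0851). Without C3 it was -0.83 ± 0.19 (adjusted p = 0.00656), and the call held in 12 of 12 fits that left out C3 and at most 1 further library.

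In the line labelled Atf3-/-, Hdac11 was at 38.0, 38.8 and 52.7 CPM with saline, at 20.7 and 28.3 CPM in C2 and L4, and at 40.3 CPM in C3. C3 again stood among the saline libraries. The log2 fold change was -0.54 ± 0.25 with C3 (edgeR, adjusted p = 0.224) and -0.81 ± 0.22 without it (adjusted p = 0.0186). The latter call was lost without Q1 as well (-0.64, adjusted p = 0.0578) or without C2 as well (-0.61, adjusted p = 0.143). It was also lost with plain library totals without C3. Averaged over both labels, Hdac11 fell by 0.68 ± 0.17 on the log2 scale with all libraries (adjusted p = 0.0113) and by 0.82 ± 0.15 without C3 (adjusted p = 0.000932), and the first held in 23 of 23 alternative fits. Gene models on the other strand overlap 690 exonic bases of Hdac11 and had 4 counts or fewer in each library.

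**Figure D2:**
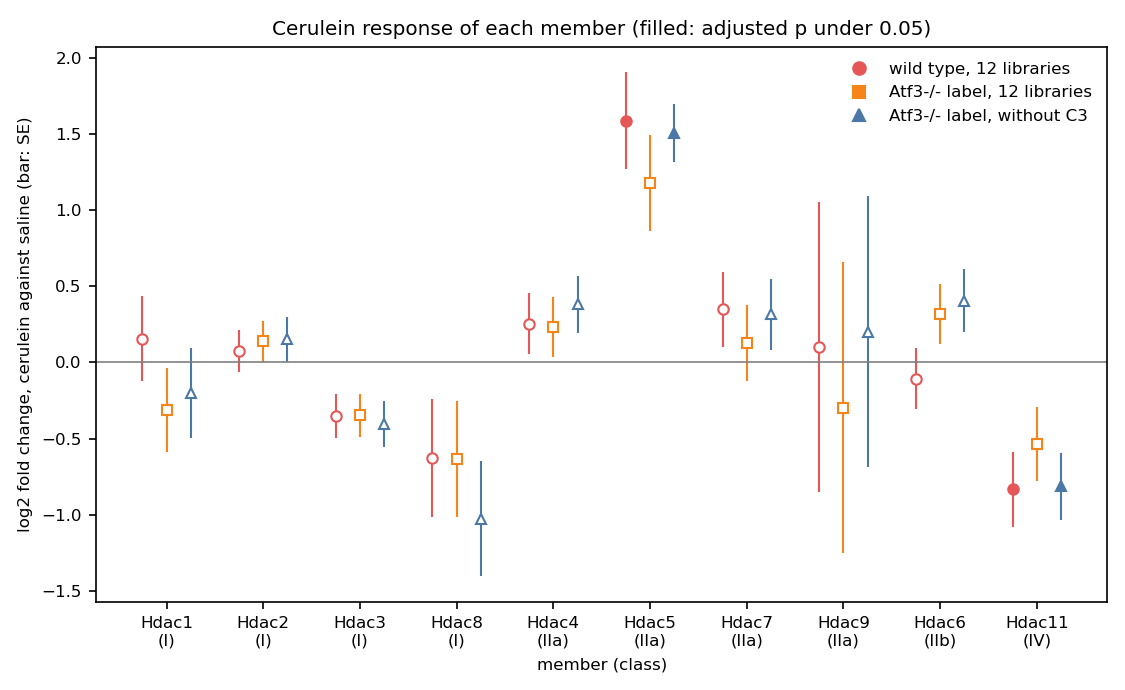
Log2 fold change of cerulein against saline (vertical axis, bars are standard errors) for each member (horizontal axis) in wild type, in the line labelled Atf3-/- with all libraries, and in that line without C3, with filled marks for adjusted p under 0.05. Hdac5 is filled at 1.59 in wild type and at 1.505 without C3, and Hdac11 is filled at -0.83 and -0.81, while all marks of the other line with C3 are open.

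In the line labelled Atf3-/- as a whole, 0 of 10 members and 0% of all genes passed edgeR's test with all 12 libraries, although 3256 genes, Hdac3 and Hdac5 among them, had an unadjusted p under 0.05. DESeq2 called Hdac5 (adjusted p = 0.00944) and no other member in those libraries, and limma-voom called none. Over all genes, DESeq2 called 1239 higher and 120 lower, and limma-voom called 0. Without C3, Hdac5 rose and Hdac11 fell, against 29.2% of all genes (18.7% higher and 10.5% lower). Hdac3, Hdac8 and Hdac11 were lower and Hdac4, Hdac5 and Hdac7 higher with no overlap between C2 and L4 and the saline libraries, beside 53.1% of all genes (29.3% higher and 23.7% lower). With C3 every member overlapped, and 15.8% of all genes did not (9.41% higher and 6.35% lower). In wild type Hdac3, Hdac8 and Hdac11 were lower and Hdac5 higher with no overlap, beside 52.3% of all genes (27.5% higher and 24.9% lower). The members' shares were thus near those of all genes.

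The class medians differed in sign. In wild type, the median log2 fold change was -0.14 over the 4 class I genes and 0.30 over the 4 class IIa genes, beside 0.05 over all genes. Without C3, the line labelled Atf3-/- gave -0.30 for class I and 0.35 for class IIa, beside 0.00 over all genes, and with C3 it gave -0.33 and 0.18. Plain library totals moved the wild-type medians to 0.14 for class I and 0.58 for class IIa, on either side of the 0.34 of all genes, so the sign of the class I median depended on the scaling and the order of the classes did not. In both settings with all 12 libraries, the class IIa genes other than Hdac5 did not pass the test in wild type. With plain totals and without C3, Hdac4 passed there too (0.53, edgeR, adjusted p = 0.0460).

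Hdac5 carried most of the class difference when levels were summed per length. The 4 class IIa genes together reached 3.49 to 4.76 CPM per kb with saline and 7.61 to 9.78 CPM per kb after cerulein without C3, with C3 at 4.23 CPM per kb. Without Hdac5, the class IIa sum was 1.51 to 2.22 CPM per kb with saline and 1.97 to 2.74 CPM per kb after cerulein, which overlapped. Hdac5 made up 45.3 to 57.9% of the class IIa sum with saline and 69.1 to 76.5% after cerulein. The class I sum ran from 10.03 to 11.3 CPM per kb with saline and from 9.01 to 9.96 CPM per kb after cerulein, which on this TMM scale was lower with no overlap but by little.

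On the TMM scale the sum over all 10 members stayed between 23.3 and 29.4 CPM per kb in the 12 libraries, while its make-up differed. The sum was not computed with plain library totals. Those moved the wild-type median log2 fold change of all genes from 0.05 to 0.34, so a steady total was not shown for that scaling. Class IIa held 13.8 to 18.5% of the sum with saline, 32.4 to 35.1% after cerulein, and 16.7% in C3. Class IV, which is Hdac11, held 37.9 to 46.5% with saline, 20.2 to 26.4% after cerulein, and 41.2% in C3. The ratio of Hdac5 to Hdac2 per length went from 0.451 to 0.731 with saline to 1.35 to 1.87 after cerulein, and that of Hdac5 to Hdac11 from 0.165 to 0.279 up to 0.956 to 1.115. Hdac5 therefore went from below Hdac2 in each saline library to above it in each cerulein library other than C3, and to about the level of Hdac11.

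**Figure D3:**
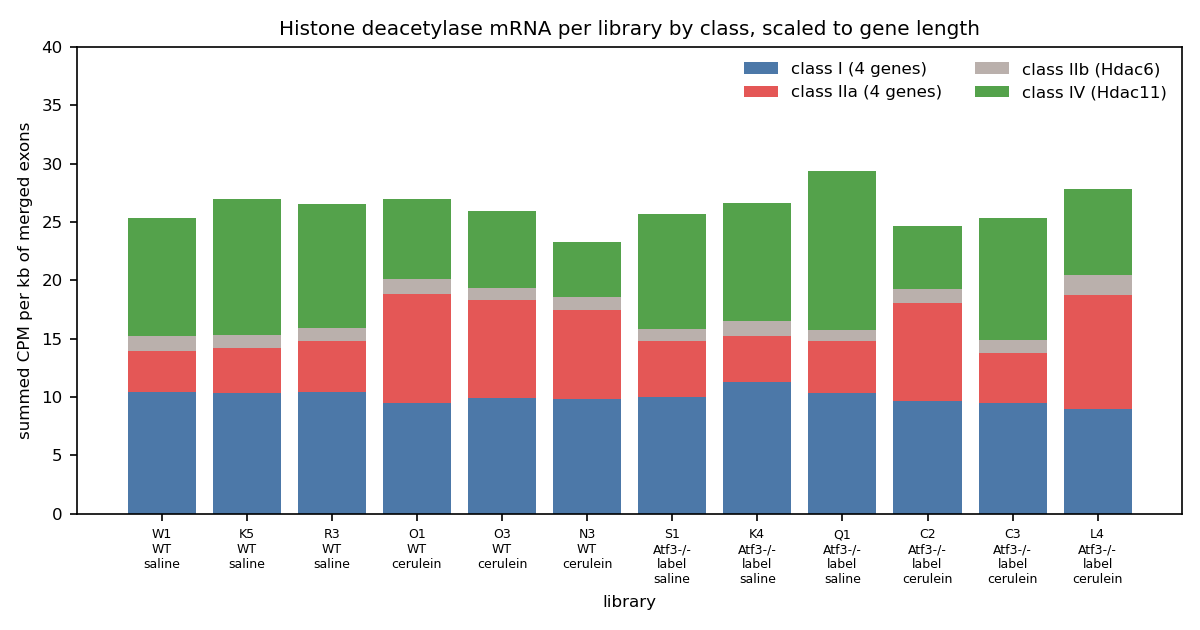
Stacked bars of summed CPM per kb of merged exons (vertical axis, from 0) for the 4 classes in each of the 12 libraries (horizontal axis). The class IIa part lies between 7.61 and 9.78 in the cerulein libraries other than C3 and between 3.49 and 4.76 in the saline libraries, and the whole bars lie between 23.3 and 29.4.

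The label Atf3-/- was compared with wild type to ask whether the genotype label moves the members. In saline, the log2 differences of the 10 members lay between -0.14 (Hdac2) and 0.24 (Hdac8), and 0 members passed edgeR's test, as did 0% of all genes, with 60 genes and no member at an unadjusted p under 0.05. All members overlapped between the labels in saline, where 4.84% of all genes did not (2.09% higher and 2.74% lower). After cerulein they lay between -0.41 (Hdac9) and 0.35 (Hdac11) with C3, and between -0.16 (Hdac8) and 0.38 (Hdac6) without it, again with 0 members called and 0% of all genes (1146 genes at an unadjusted p under 0.05 with C3 and 747 without it, none of them members). DESeq2 and limma-voom called 0 members in these comparisons, and over all genes DESeq2 called 11 after cerulein with C3 (7 higher and 4 lower). Without C3, Hdac4 was higher in C2 and L4 than in the 3 wild-type cerulein libraries with no overlap, as were 9.51% of all genes (6.53% were lower, 16% in all), and with C3 every member overlapped, beside 5.47% of genes higher and 4.29% lower (9.76% in all). The Hdac4 log2 difference without C3 was 0.24 ± 0.18 (edgeR, adjusted p = 0.984).

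The difference of the 2 cerulein responses was tested as an interaction, and 0 members and 0% of all genes passed (594 genes, none of them members, at an unadjusted p under 0.05 with edgeR, and 0 members called by DESeq2 or limma-voom). For Hdac5 it was -0.41 ± 0.44 on the log2 scale with C3 (edgeR, adjusted p = 0.840) and -0.08 ± 0.26 without it (adjusted p = 0.999). For Hdac11 it was 0.30 ± 0.35 with C3 and 0.02 ± 0.29 without it. With standard errors of this size, equal responses in the 2 lines were not shown.

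The partners of these enzymes were described from 9 lists with 96 members, of which 92 passed the filter. In wild type 28 rose after cerulein, 10 fell and 54 did not pass edgeR's test, beside 17.9% of all genes higher and 12.8% lower. Without C3 the wild-type counts were 33 higher and 17 lower, beside 21.3% and 16.6% of all genes. The line labelled Atf3-/- had 0 of 92 past the threshold with C3, and 24 that rose and 11 that fell without it, beside 18.7% and 10.5% of all genes. The lists are given as counts and medians beside the median of all genes in wild type, 0.05, and none was tested as a list.

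Complexes that carry Hdac1 and Hdac2 had members in both directions. Of 15 Sin3 complex genes, 2 rose and 1 fell in wild type, with a median log2 fold change of 0.07, and without C3 5 rose and 3 fell. The histone chaperone gene Rbbp7, shared by several of these complexes, rose from a mean of 20.9 to 101 CPM (2.27 ± 0.40, edgeR, adjusted p = 0.00918). Ing1, whose protein reads methylated histone H3, fell by 1.47 ± 0.32 on the log2 scale (adjusted p = 0.0106), and the scaffold gene Sin3b rose by 0.45 ± 0.16 (adjusted p = 0.0472). Of 9 NuRD genes, 4 rose and 1 fell, with a median of 0.54. Those that rose were Mbd3 (0.82), Gatad2a (0.79), Mbd2 (0.74) and Mta2 (0.73). Of 9 CoREST and MiDAC genes, 3 rose and 0 fell, with a median of 0.53, and those that rose were the histone demethylase gene Kdm1a (1.01 ± 0.23), Dnttip1 (0.98) and Rcor1 (0.53). So some partner genes of Hdac1 and Hdac2 rose and others fell where the 2 enzymes' own mRNA did not pass the test. Over all genes tested in wild type, 17.9% were higher and 12.8% lower, and the list counts were not tested against these shares.

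Among the genes of the NCoR complex, which carries Hdac3 and binds class IIa enzymes, 2 of 5 rose, 0 fell and 3 did not pass the test in wild type, with a median of 0.18. The subunit gene Tbl1x rose by 0.78 ± 0.26 on the log2 scale in wild type (edgeR, adjusted p = 0.0445). Without C3 it rose by 1.03 ± 0.14 in the line labelled Atf3-/- (adjusted p = 0.000410).

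The genes that act on class IIa enzymes were MEF2 factors, kinases and 14-3-3 proteins. Of 20 MEF2 and kinase genes, 16 passed the filter, and in wild type 5 rose and 2 fell, with a median of 0.28. Mef2a rose by 1.29 ± 0.20 (edgeR, adjusted p = 0.00918). Among the kinase genes, Camk2d rose by 1.38 ± 0.28 while Camk1d fell by 1.60 ± 0.40 and Camk2b fell by 1.27 ± 0.33, so the calmodulin-dependent kinases went both ways. Of 7 14-3-3 genes, 5 rose and 0 fell, with a median of 0.67, and the largest were Ywhag (2.05 ± 0.42), Ywhah (1.56 ± 0.34), Ywhaz (1.23 ± 0.24) and Ywhab (0.67). Without C3, 5 of 7 rose in the line labelled Atf3-/- too, with a median of 0.999.

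Sirtuin, acetyltransferase and bromodomain reader genes went in both directions. Of 7 sirtuin genes, the NAD-dependent deacylases, Sirt1 rose by 0.99 ± 0.22 (edgeR, adjusted p = 0.0113), and the 3 mitochondrial members Sirt5 (-1.07), Sirt4 (-0.94) and Sirt3 (-0.82) fell, with a list median of -0.48. Of 12 acetyltransferase genes, 2 rose (Ncoa3, 0.98, and Hat1, 0.80) and 2 fell (Kat6b, -1.09, and Ncoa1, -0.72), with a median of 0.25. Of 12 bromodomain reader genes, 4 rose and 1 fell, with a median of -0.25, and Brd9 was the 1 that fell (-0.51). Without C3, 4 rose and 4 fell. Brd2, a BET protein that binds acetylated histones, rose from a mean of 70.9 to 384 CPM in wild type (2.44 ± 0.43, adjusted p = 0.00918), and Brd1 (0.77) rose less.

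**Figure D4:**
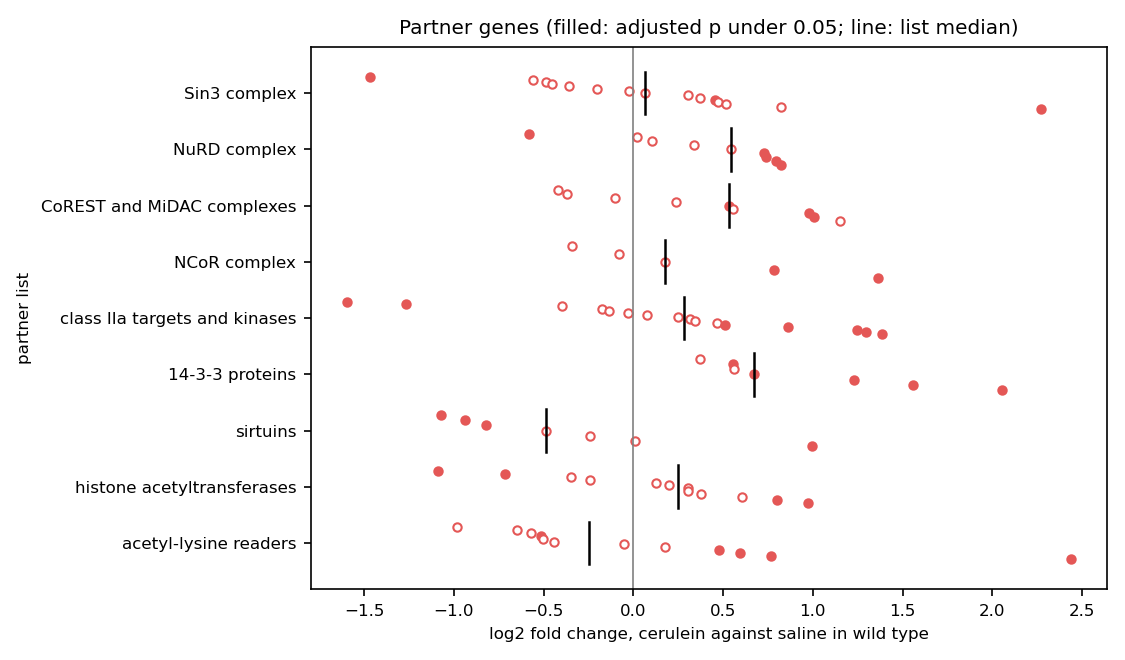
Log2 fold change of cerulein against saline in wild type (horizontal axis) for the 92 tested genes of 9 partner lists (vertical axis), filled where adjusted p was under 0.05, with a line at each list's median. The 14-3-3 list has a median of 0.67 and no gene that fell, and Brd2, at 2.44, is the rightmost point.

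The genes with a pattern most like Hdac5 were found by Pearson correlation of log2 CPM over the 12 libraries, among 7828 genes with a mean of at least 5 CPM. They were Desi2 (r = 0.995), an isopeptidase gene, Esf1 (0.992), Aen (0.991), Ap2b1 (0.991) and Gjb2 (0.991). The 12 libraries share 1 split into high and low, with C3 low, so a high r mostly says that a gene has this split, and no p is given. Their sizes differed, with wild-type log2 fold changes of 2.65 for Desi2, 1.65 for Esf1, 1.36 for the apoptosis-enhancing nuclease gene Aen, 0.75 for the adaptor subunit gene Ap2b1 and 3.72 for the gap junction gene Gjb2. Desi2 was at 11.8, 10.3 and 11.7 CPM in wild type with saline, at 86.7, 69.6 and 55.2 CPM after cerulein, and at 15.9 CPM in C3.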

How the data were processed

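The deposited values are whole-number read counts per Ensembl gene, made by the authors from a stranded total RNA kit per the labels' protocols. HTSeq, DESeq2 and the build mm10 stand in the submitters' processing notes. The aligner, annotation release and strand setting are not stated there or in the labels. Of 49585 genes, 49326 matched GENCODE M21 (GRCm38) by identifier. Counts were filtered by filterByExpr (14329 genes), scaled by TMM, and fitted as 4 group means with edgeR 4.0.16 (robust quasi-likelihood, two-sided, R 4.3.3), with Benjamini-Hochberg adjustment over all genes. A standard error is the absolute log2 fold change over the square root of F. CPM use TMM-scaled totals, and CPM per kb divide by merged exon length. The fit was tested on simulated data. The biological coefficient of variation was 0.357, and 0.304 without C3.

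Alternatives were other scalings and filters, DESeq2 1.42.0, limma-voom (limma 3.58.1), and leaving out libraries. Plain totals, DESeq2 and limma-voom without C3, and leaving out C3 with each other library were added after seeing the data. The members and lists were chosen with earlier results of these data known. All members are described. Of each partner list, up to 4 genes past the threshold in wild type with the largest change are named, apart from some that are not reported here, and Desi2 is also given by library, chosen after its values were seen. Promoter stretches come from RefSeq (GRCm38.p6). Hdac1 and Hdac3 had none there. Tables used Python 3.11.15, pandas 2.3.3, NumPy 2.4.6 and matplotlib 3.10.9.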

Additional observations from a re-analysis of the deposited data

How the results depend on the processing

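In wild type 2 members passed the threshold in the 12-library fit, 1 with plain library totals, and 1 to 2 when 1 library was left out. With plain totals and without C3, Hdac4, Hdac5 and Hdac11 passed in wild type. In the line labelled Atf3-/- the count was 0, against 1 with DESeq2, 2 without C3, 3 without C3, N3 and K4, and, also without C3, 3 with DESeq2, 2 with limma-voom and 2 with plain totals. It was 0 to 2 when 1 library was left out, and 1 to 3 when C3 and 1 more were left out. Averaged over both labels it was 3, 5 with plain totals without C3, 2 with no filter on low counts, 2 to 4 when 1 library was left out (the lowest without R3, O1, Q1 or L4), and 3 to 5 when C3 and 1 more library were left out. The median log2 fold change of class IIa minus that of class I in wild type was 0.44, and 0.30 to 0.76 when 1 library was left out, the highest without O3. For the labels compared after cerulein it was -0.13, -0.41 to 0.21 when 1 library was left out, the lowest without L4, and, without C3, 0.21 (edgeR), 0.21 (DESeq2), 0.27 (limma-voom) and 0.21 (plain totals), and 0.25 without C3, N3 and K4. For the difference of the responses it was -0.31, -0.62 (without L4) to 0.24 when 1 library was left out, and, without C3, 0.24 (edgeR), 0.26 (DESeq2), 0.24 (limma-voom) and 0.16 (plain totals), and 0.019 without C3, N3 and K4. The cause of these shifts was not tested. Lengths of the longest transcript in place of merged exons raised the level per length of each member and set Hdac2 above Hdac3 with no overlap in wild type with saline. With these lengths the levels of Hdac6 and Hdac7 also overlapped those of Hdac4 and Hdac8 in that group. No paired analysis was possible because the groups share no replicate code. Counts of Hdac8 and Hdac9 were low, which limits what could be detected for them.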
